A study of Mus musculus with 6 samples.

Results

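This account covers 9 genes of the kidney's thick ascending limb and distal convoluted tubule, *Umod*, *Slc12a1*, *Slc12a3*, *Pvalb*, *Kcnj1*, *Kcnj10*, *Kcnj16*, *Calb1* and *Trpm6*. They were taken by symbol from the 55367 gene symbols measured in each library, with earlier results of these data known. All 9 passed the filter on low values. RNA-seq was performed on kidney cells captured with DBA, the plant lectin *Dolichos biflorus* agglutinin, which binds collecting duct epithelium, in 3 groups with 2 libraries each, all labelled Day115. WT mice received saline. ADPKD mice, which carry floxed *Pkd1* and a Cre/Esr1 transgene activated by tamoxifen at postnatal days 25 and 28, also received saline. The cell types in which the Cre is active are not given in the sources used here. The ADPKD+MMPP mice were ADPKD mice injected from day 55, every 4 days, with MMPP, a PEG-coated, manganese-chelated melanin-like nanoparticle. Nothing in the labels says whether the libraries of a group came from separate animals or from pools, and p-values then measure only the spread between these libraries.

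The thick ascending limb takes up sodium, potassium and chloride from the tubule fluid without water, and the distal convoluted tubule that follows it takes up sodium chloride and magnesium. In the thick limb, the cotransporter NKCC2 depends on potassium that returns to the fluid through the apical channel ROMK, and in the distal convoluted tubule a basolateral channel made of Kir4.1 and Kir5.1 sets the voltage that governs the cotransporter NCC. These cells lie upstream of the collecting duct from which DBA-positive cells are usually taken. In bulk RNA, fewer cells of a type and less RNA per cell cannot be told apart. The segment named for a gene need not be its only site, and collecting duct cells may express it too. This holds for the potassium channel genes *Kcnj1*, *Kcnj10* and *Kcnj16* in particular. Which cells gave the reads of each gene was not tested.

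The labels call the samples kidney tubular epithelial cells, and their extraction text speaks both of DBA-positive cells and of whole-kidney RNA. *Aqp2*, the water channel of collecting duct principal cells, had between 677 and 3555 FPKM in the 6 libraries. FPKM, the unit of all levels here, is the number of fragments of a gene per unit of exon length, scaled to the fragments of the library. Markers of other cell types were present as well. The summed FPKM of 12 proximal tubule markers was 384 to 706 in WT, 296 to 932 in ADPKD and 13667 to 14348 in ADPKD+MMPP, and that of 5 podocyte markers was 900 to 1231, 90.8 to 205 and 87.2 to 89.7. *Kap*, an androgen-regulated proximal tubule gene, made up 12822 and 12116 FPKM of the treated proximal tubule sums, and the other 11 markers summed to 283 to 473 in WT, 232 to 423 in ADPKD and 1526 to 1551 in ADPKD+MMPP. *Pkd1*, the targeted gene, measured over all its exons and so also outside the deleted part, had 17.7 and 17.2 FPKM in WT, 7.64 and 8.91 in ADPKD, and 4.34 and 3.99 in ADPKD+MMPP. FPKM multiplied by exon length and a fitted depth fell on whole read numbers for 98.4% to 99.1% of low values (within 0.05 of a whole number). The fitted depths were 30.6 M and 31.0 M (WT), 33.1 M and 32.1 M (ADPKD), and 11.8 M and 10.9 M (ADPKD+MMPP) reads. Whether a read number is the same unit in all groups was not tested. The share of odd read numbers was taken over a wider range of low values, and only those within 0.05 of a whole number. It was 37.0% to 38.8% in the WT and ADPKD libraries, but 8.42% and 8.03% in the ADPKD+MMPP libraries. The treated libraries thus differed from the others in the kind of read numbers behind their values as well as in treatment, and these cannot be told apart.

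The sequence shown here is the stretch of 250 bases before a RefSeq start (GRCm38.p6) in which the core TGACG was found. The study concerns CREB, a cAMP-responsive factor that binds the letters TGACGTCA. RefSeq gave 12 such windows for 8 of the 9 genes, and none for *Calb1*. TGACGTCA and its shorter core TGACG were searched on both strands, and matches to TGACG include those inside TGACGTCA. None of the 12 windows held TGACGTCA, which is present in 1.55% of the 32851 windows of all genes. TGACG, present in 17.8% of all windows, was found in the window of *Kcnj1*, 81 bases before a start that lies inside the gene body. Capitals mark the matched letters, and the sequence reads 5′ to 3′ on the strand of the gene.
*Kcnj1* at chr9:32393735-32393984, plus strand: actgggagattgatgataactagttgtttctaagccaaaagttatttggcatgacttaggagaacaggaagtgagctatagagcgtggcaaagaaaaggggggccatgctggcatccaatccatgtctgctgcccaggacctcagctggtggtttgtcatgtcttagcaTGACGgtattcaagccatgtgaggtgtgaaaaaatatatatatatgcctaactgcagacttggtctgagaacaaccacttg
A match is a description of these letters and not a bound site, and a window without one says nothing of the factor. The levels of *Kcnj1* and the other members follow.

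*Umod* encodes uromodulin, a protein that thick limb cells secrete into the urine. It lies on chromosome 7 from 119462711 to 119479282 on the minus strand. Its level was 987 and 319 FPKM in WT, 498 and 152 in ADPKD, and 80.3 and 79.3 in ADPKD+MMPP. The WT and ADPKD libraries overlapped, and both treated libraries were below all others. The opposite strand holds *Gm44588*, listed at 0 in all 6 libraries.

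*Slc12a1*, on chromosome 2 from 125152505 to 125230002, encodes NKCC2, the sodium-potassium-chloride cotransporter that loop diuretics block. It had 170 and 81.0 FPKM in WT, 54.9 and 19.3 in ADPKD, and 24.7 and 22.6 in ADPKD+MMPP. Both ADPKD libraries were below both WT libraries, and the treated libraries lay between the ADPKD ones. *Kcnj1*, on chromosome 9 from 32372493 to 32399197, encodes ROMK, the apical potassium channel that recycles potassium for NKCC2. It had 42.1 and 31.2 FPKM in WT, 31.2 and 7.26 in ADPKD, and 14.9 and 15.5 in ADPKD+MMPP. The higher ADPKD library reached the level of the lower WT library, and both treated libraries were below WT and within the range of ADPKD.

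*Slc12a3*, on chromosome 8 from 94329201 to 94366214, encodes NCC, the thiazide-sensitive sodium chloride cotransporter that defines the distal convoluted tubule. It had 80.6 and 70.2 FPKM in WT, 35.6 and 3.14 in ADPKD, and 65.8 and 67.4 in ADPKD+MMPP. Every treated and WT library was above both ADPKD libraries, which differed from each other 11.3-fold. *Pvalb*, on chromosome 15 from 78191114 to 78206400, encodes parvalbumin, a calcium buffer of the early distal convoluted tubule. It had 12.3 and 10.1 FPKM in WT, 0.407 and 0 in ADPKD, and 4.88 and 4.23 in ADPKD+MMPP. In recovered read numbers these values were 390 and 326 in WT, 14 and 0 in ADPKD, and 60 and 48 in ADPKD+MMPP, where the unit may differ. A count of 0 at the depth of ADPKD replicate 2 allows up to 0.0899 FPKM (3 reads, counting error only). The 3 groups of *Pvalb* did not overlap.

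*Trpm6*, on chromosome 19 from 18749983 to 18892511, encodes the magnesium channel of the distal convoluted tubule's apical membrane. It had 2.26 and 2.31 FPKM in WT, 8.27 and 17.7 in ADPKD, and 2.06 and 2.02 in ADPKD+MMPP. Both ADPKD libraries were above all others. *Calb1*, on chromosome 4 from 15881264 to 15908064, encodes calbindin-D28k, the calcium-carrying protein of the late distal convoluted and connecting tubule. It had 20.4 and 20.2 FPKM in WT, 11.1 and 2.28 in ADPKD, and 43.1 and 43.0 in ADPKD+MMPP, so that the groups did not overlap.

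*Kcnj10*, on chromosome 1 from 172341210 to 172374085, encodes Kir4.1, a basolateral potassium channel subunit listed here for the distal convoluted tubule. It had 10.005 and 8.32 FPKM in WT, 6.91 and 1.71 in ADPKD, and 34.1 and 32.7 in ADPKD+MMPP, with no overlap between the groups. *Kcnj16*, on chromosome 11 from 110968033 to 111027968, encodes Kir5.1, the subunit that pairs with Kir4.1. It had 27.7 and 21.7 FPKM in WT, 37.7 and 20.9 in ADPKD, and 4.65 and 4.56 in ADPKD+MMPP. WT and ADPKD overlapped, and the treated libraries were below both.

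**Figure D1:**
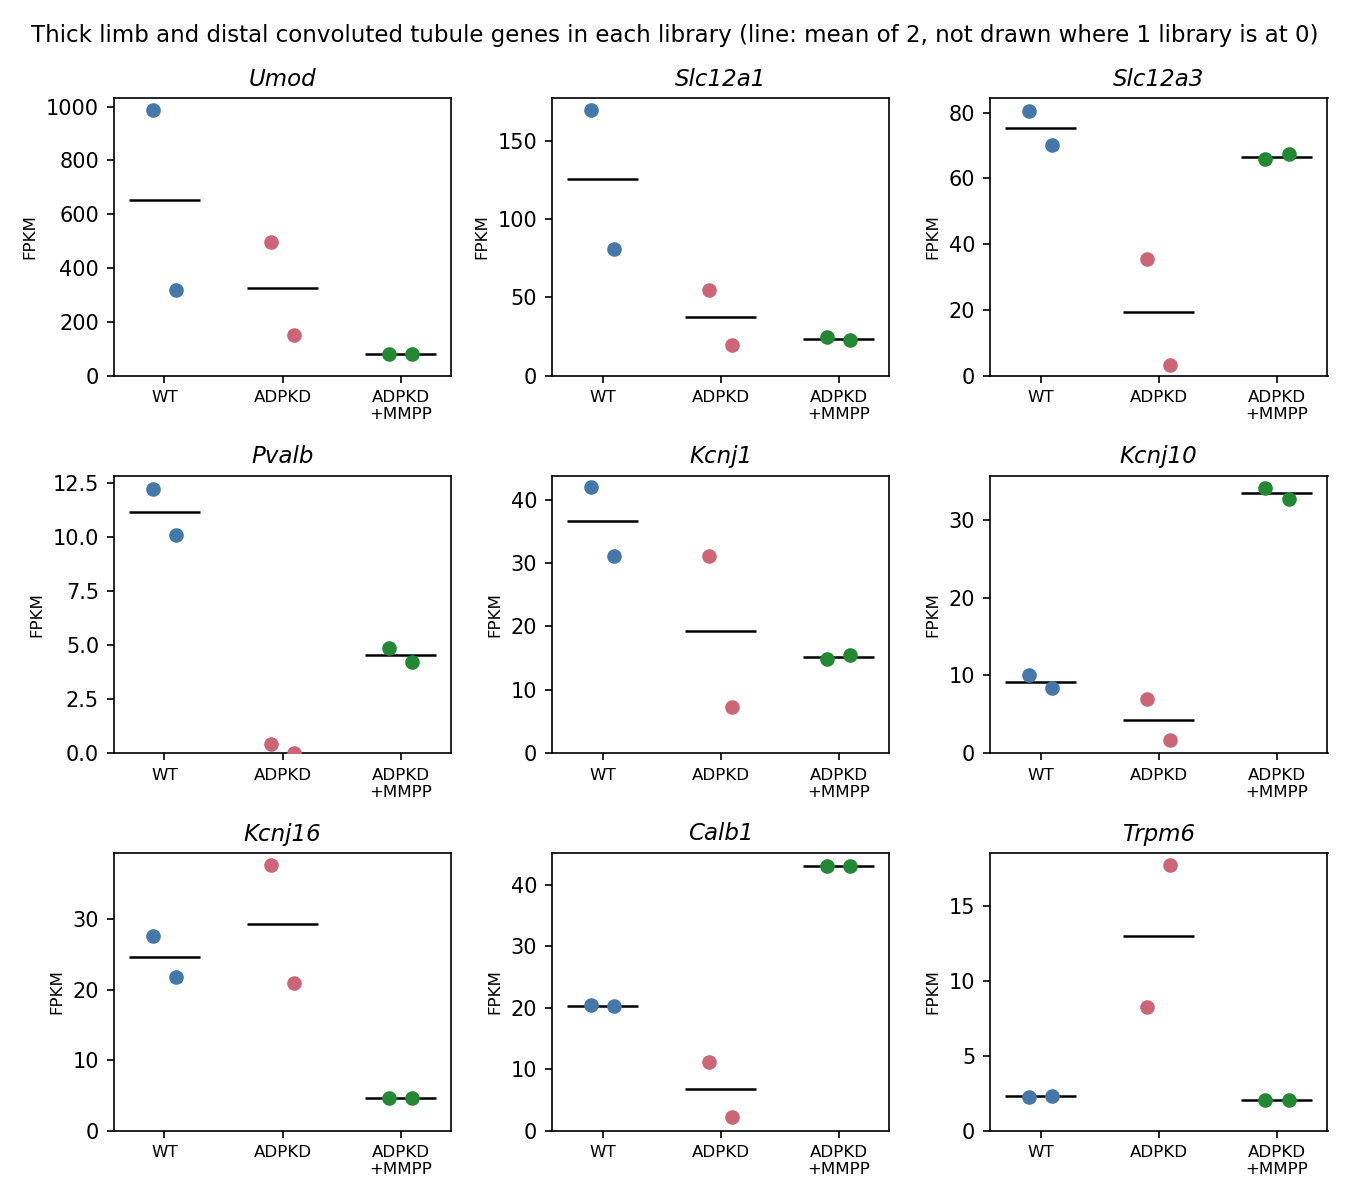
FPKM of each of the 9 genes (vertical axes, each from 0) in each of the 6 libraries, by group, with a line at the mean of 2 libraries except for *Pvalb* in ADPKD, where 1 library is at 0. *Slc12a3*, *Pvalb* and *Calb1* were lowest in ADPKD, *Trpm6* was highest there, and *Umod* and *Kcnj16* were lowest in ADPKD+MMPP.

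Libraries of one group were unequal for these genes in WT and ADPKD. WT replicate 1 had 3.09 times the *Umod* and 2.099 times the *Slc12a1* of WT replicate 2, while for the other 7 genes this ratio ran from 0.976 for *Trpm6* to 1.35 for *Kcnj1*. ADPKD replicate 2 was below ADPKD replicate 1 for 8 of the 9 genes, and the ratio of replicate 1 to replicate 2 was 3.28 for *Umod*, 4.30 for *Kcnj1*, 4.86 for *Calb1* and 0.466 for *Trpm6*, the gene with the opposite order. ADPKD replicate 2 was also low for principal cell markers, whose summed FPKM was 958 there against 2507 in ADPKD replicate 1. The part of this library's make-up in the results was not tested, and values without it are given below where a call changes. The treated libraries were close to each other, with ratios from 0.960 to 1.16 over the 9 genes.

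The order of the levels also differed between groups. In WT it ran *Umod*, *Slc12a1*, *Slc12a3*, *Kcnj1*, *Kcnj16*, *Calb1*, *Pvalb*, *Kcnj10* and *Trpm6*, and the libraries of neighbours in this order did not overlap. The gaps were small between *Slc12a1* and *Slc12a3*, at 81.0 and 80.6 FPKM in their nearest libraries, and between *Pvalb* and *Kcnj10*, at 10.1 and 10.005. In ADPKD *Umod* was separate at the top and *Pvalb* at the bottom, and the other 7 genes overlapped with their neighbours. In ADPKD+MMPP the order was *Umod*, *Slc12a3*, *Calb1*, *Kcnj10*, *Slc12a1*, *Kcnj1*, *Kcnj16*, *Pvalb* and *Trpm6*, and of these neighbours *Kcnj16* and *Pvalb* alone overlapped.

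To ask what loss of *Pkd1* changed in these genes, ADPKD was compared with WT. *Slc12a1*, *Slc12a3*, *Pvalb* and *Calb1* fell and *Trpm6* rose. The 1 thick limb gene among them was *Slc12a1*, while *Umod* and *Kcnj1* did not pass. The test was limma's on log2(FPKM + 1), and calls took the study's thresholds, a fold of 1.5 or more together with an unadjusted P under 0.05. The fit held a single spread per gene over all 6 libraries. Each gene's SE is thus the same in every comparison and includes the group not compared. Of all 14862 genes tested, 26.7% were called, 14.2% higher and 12.5% lower, against 1 of the 9 genes higher and 4 lower. The libraries of ADPKD lay below those of WT without overlap for 5 of the 9 genes and above them for 1, beside 31.5% and 35.5% of all genes. With the adjusted p held under 0.05 at the same fold, 1 was higher and 1 lower, beside 22.5% of all genes called. The median log2 fold change was -1.19 over the 9 genes and 0.03 over all genes tested.

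*Pvalb* fell from 11.2 ± 1.51 FPKM in WT (SD, n = 2) to 0.407 and 0 in the ADPKD libraries. Its log2 fold change was -3.36 (SE 0.20, limma adjusted p = 0.00186), a value that depends on the pseudocount and was -5.64 with a pseudocount of 0.1. *Trpm6* rose from 2.29 ± 0.039 FPKM in WT to 13.0 ± 6.69 in ADPKD (SD, n = 2), a log2 fold change of 2.004 (SE 0.32, limma adjusted p = 0.0101). These were the 2 members whose adjusted p was under 0.05. Their calls held under each alternative setting tried and without any 1 library.

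*Slc12a3* fell from 75.4 ± 7.36 to 19.4 ± 23.0 FPKM (SD, n = 2), by 2.63 on the log2 scale (SE 0.94, limma adjusted p = 0.0928). *Calb1* fell from 20.3 ± 0.13 to 6.68 ± 6.22 FPKM (SD, n = 2), by 1.76 on the log2 scale (SE 0.57, limma adjusted p = 0.0720). *Slc12a1* fell from 125 ± 62.9 to 37.1 ± 25.2 FPKM (SD, n = 2), by 1.81 on the log2 scale (SE 0.55, limma adjusted p = 0.0602). These 3 calls were not stable when single libraries were left out. Leaving 1 out also re-estimates the spread that the groups share, so a call can be lost while the fold change stays. The call of *Slc12a1* was lost without WT replicate 1 (log2 fold change -1.28) and without ADPKD replicate 2 (-1.08), that of *Calb1* without WT replicate 1 (-1.75) or WT replicate 2 (-1.76), and that of *Slc12a3* without WT replicate 1 (-2.53), WT replicate 2 (-2.73) or either ADPKD+MMPP library (-2.63).

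The other 4 genes did not pass. *Umod* had a log2 fold change of -1.03 (SE 0.71, limma adjusted p = 0.325), *Kcnj1* of -1.19 (SE 0.61, limma adjusted p = 0.199), *Kcnj10* of -1.13 (SE 0.48, limma adjusted p = 0.136) and *Kcnj16* of 0.19 (SE 0.28, limma adjusted p = 0.652). Without ADPKD replicate 1, *Umod* (-1.88), *Kcnj1* (-2.17) and *Kcnj10* (-1.90) passed as lower, and 7 genes were then lower. Without ADPKD replicate 2, *Kcnj16* passed as higher at 0.60, and without ADPKD replicate 1 its value was -0.22. An exact permutation test of 2 libraries against 2 cannot give a p below 0.333 (two-sided), so that it can support no call here.

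**Figure D2:**
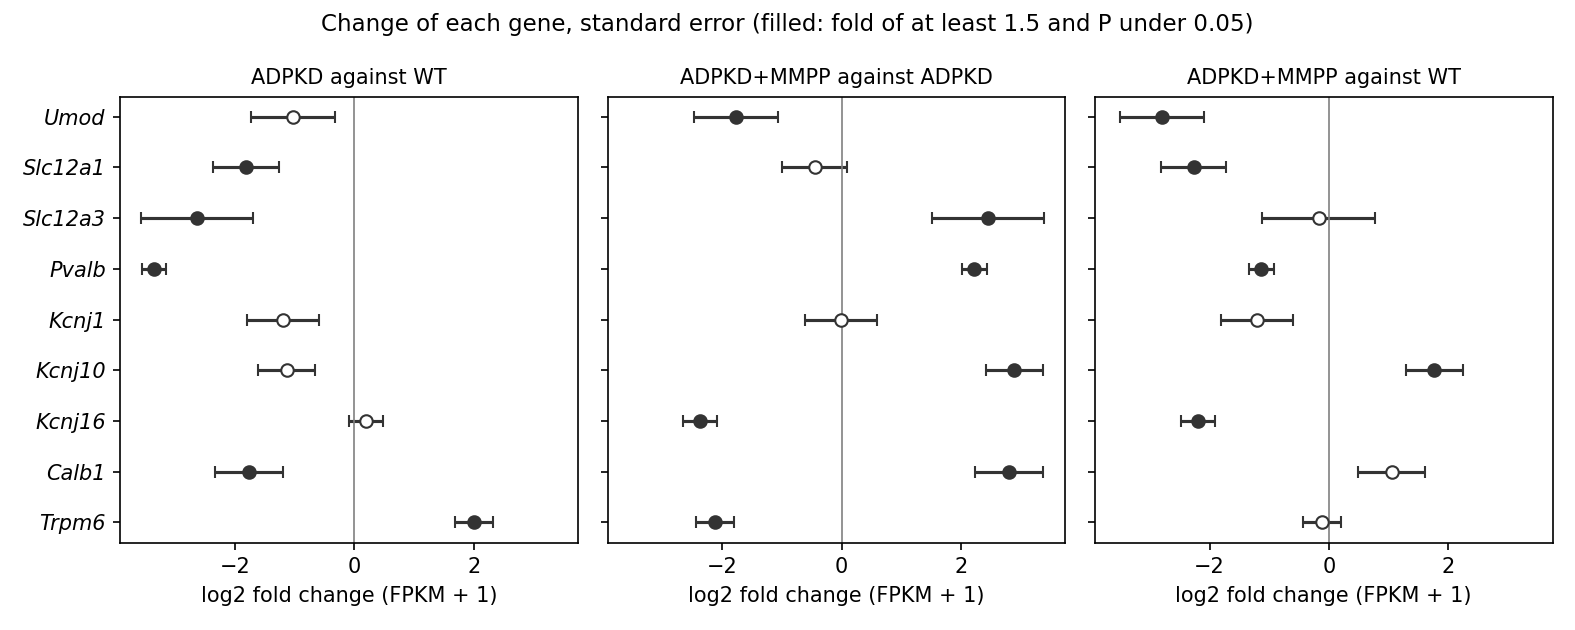
Log2 fold change of FPKM + 1 for the 9 genes in ADPKD against WT, ADPKD+MMPP against ADPKD and ADPKD+MMPP against WT, with bars for the standard error and filled points for genes past the thresholds. *Pvalb* had the lowest value in ADPKD against WT at -3.36, and *Kcnj10* the highest in ADPKD+MMPP against ADPKD at 2.90.

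To ask what MMPP changed in ADPKD mice, ADPKD+MMPP was compared with ADPKD. *Slc12a3*, *Pvalb*, *Kcnj10* and *Calb1* rose, and *Umod*, *Kcnj16* and *Trpm6* fell. The 9 genes thus split, with 4 higher and 3 lower, in a comparison in which 70.9% of all genes were called, 27.9% higher and 43.0% lower. The treated libraries stood wholly above the ADPKD ones for 4 genes and wholly below them for 3, beside 36.1% and 51.7% of all genes. With the adjusted p held under 0.05 at the same fold, 3 were higher and 2 lower, beside 70.3% of all genes called. This comparison and that of ADPKD with WT share the ADPKD libraries, so that a gene with a low value in them would move in opposite directions in both.

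*Kcnj10* rose from 4.31 ± 3.68 to 33.4 ± 0.97 FPKM (SD, n = 2), by 2.90 on the log2 scale (SE 0.48, limma adjusted p = 0.00224). *Calb1* rose to 43.1 ± 0.064 FPKM (SD, n = 2), by 2.81 (SE 0.57, limma adjusted p = 0.00524). *Pvalb* rose to 4.55 ± 0.46 FPKM (SD, n = 2), by 2.22 (SE 0.20, limma adjusted p = 0.000221). These 3 calls held under each alternative and without any 1 library. *Slc12a3* rose to 66.6 ± 1.14 FPKM (SD, n = 2), by 2.46 (SE 0.94, limma adjusted p = 0.0547). Its call was lost without WT replicate 1 or 2 (2.46 each), ADPKD+MMPP replicate 1 (2.47) or ADPKD+MMPP replicate 2 (2.44). The WT libraries are not part of this comparison, and leaving 1 of them out alters only the spread that the groups share.

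*Kcnj16* fell from 29.3 ± 11.9 to 4.61 ± 0.059 FPKM (SD, n = 2), a log2 fold change of -2.38 (SE 0.28, limma adjusted p = 0.000614). *Trpm6* fell to 2.04 ± 0.031 FPKM (SD, n = 2), a log2 fold change of -2.12 (SE 0.32, limma adjusted p = 0.00158). *Umod* fell from 325 ± 245 to 79.8 ± 0.68 FPKM (SD, n = 2), a log2 fold change of -1.77 (SE 0.71, limma adjusted p = 0.0622). The call of *Umod* was lost without ADPKD replicate 1 (-0.92), ADPKD+MMPP replicate 1 (-1.78) or ADPKD+MMPP replicate 2 (-1.76). *Slc12a1*, at -0.45 (SE 0.55, limma adjusted p = 0.477), and *Kcnj1*, at -0.01 (SE 0.61, limma adjusted p = 0.989), did not pass. Without ADPKD replicate 1 *Slc12a1* was at 0.28, and *Kcnj1* passed as higher at 0.97 without ADPKD replicate 1 and as lower at -0.99 without ADPKD replicate 2.

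The direction of change under MMPP moved with the structure of the gene. For each gene, the share of exon bases belonging to just 1 of its annotated transcripts (GENCODE vM21) was computed, and this share is 100% where a gene has 1 transcript. It was 2.82% for *Kcnj16*, 4.99% for *Umod*, 14.0% for *Kcnj1*, 14.6% for *Pvalb*, 17.4% for *Slc12a1* and 18.5% for *Trpm6*, and 64.7% for *Slc12a3*, 87.7% for *Calb1* and 100% for *Kcnj10*. Of the 6 genes under 20%, 3 fell and 1, *Pvalb*, rose, while all 3 genes of at least 60% rose. Among the 1748 tested protein-coding genes under 20%, 3.20% were called higher and 81.1% lower, with a median log2 fold change of -1.61. Among the 5286 of at least 60%, 56.8% were higher and 12.5% lower, with a median of 0.78. When ADPKD was set against WT, these classes had 15.9% each called higher and 15.4% and 11.7% called lower, with medians of -0.0001 and 0.06. The difference in gene structure lies between the treated libraries and the others and cannot be told apart from the treatment.

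With each library centred within 20 bins of this share, over protein-coding genes, the values under MMPP moved. The log2 fold change against ADPKD became 0.34 for *Umod*, 1.32 for *Slc12a1*, 1.93 for *Kcnj1*, -0.27 for *Kcnj16* and -0.34 for *Trpm6*. It stayed positive for *Slc12a3* (2.44), *Pvalb* (4.17), *Kcnj10* (1.85) and *Calb1* (1.70). After centring 6 of the 9 genes were called higher and 0 lower, beside 33.9% and 24.5% of the 12375 protein-coding genes in this setting. The falls of *Umod*, *Kcnj16* and *Trpm6* were therefore lost under this setting, and at an unadjusted P *Slc12a1* and *Kcnj1* passed as higher.

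**Figure D3:**
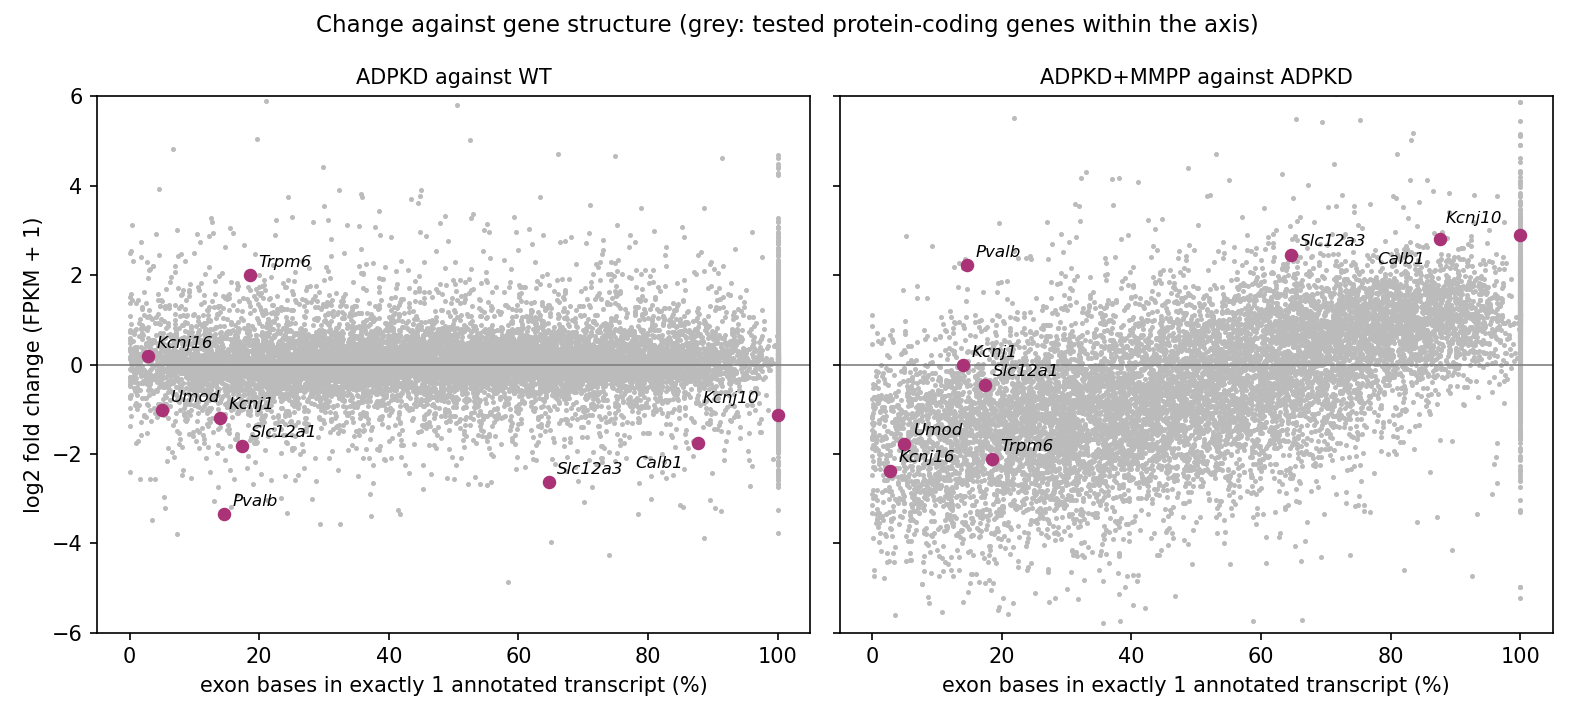
Log2 fold change (vertical axis) against the percentage of exon bases in exactly 1 annotated transcript (horizontal axis) for tested protein-coding genes in grey and the 9 genes in purple. In ADPKD against WT, on the left, the grey points lie level around 0, while in ADPKD+MMPP against ADPKD, on the right, they rise from a median of -1.61 under 20% to 0.78 at 60% or more, with *Pvalb* at 2.22 above its neighbours.

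To ask how far the treated mice were from WT, ADPKD+MMPP was compared with WT. *Kcnj10* was higher and *Umod*, *Slc12a1*, *Pvalb* and *Kcnj16* were lower. Of all genes tested 73.9% were called, 30.1% higher and 43.8% lower, against 1 and 4 of the 9 genes. The libraries did not overlap for any of the 9 genes, with 2 above and 7 below WT, beside 38.9% and 53.0% of all genes. With the adjusted p held under 0.05, 1 was higher and 4 lower, beside 73.4% of all genes called.

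The log2 fold change was -2.19 for *Kcnj16* (SE 0.28, limma adjusted p = 0.000785), -2.80 for *Umod* (SE 0.71, limma adjusted p = 0.0121), -2.26 for *Slc12a1* (SE 0.55, limma adjusted p = 0.0102) and -1.13 for *Pvalb* (SE 0.20, limma adjusted p = 0.00301). *Kcnj10* was higher by 1.77 (SE 0.48, limma adjusted p = 0.0157), a call lost without WT replicate 2 (1.65) or ADPKD+MMPP replicate 1 (1.74). *Slc12a3* was at -0.17 (SE 0.94, limma adjusted p = 0.872) and *Trpm6* at -0.11 (SE 0.32, limma adjusted p = 0.760). *Calb1* was at 1.05 (SE 0.57, limma adjusted p = 0.137) and *Kcnj1* at -1.20 (SE 0.61, limma adjusted p = 0.115), and these 4 did not pass. Their SE includes the spread of ADPKD, a group not compared here. For *Calb1* the SD was 6.22 FPKM in ADPKD, against 0.13 in WT and 0.064 in ADPKD+MMPP. *Calb1* passed as higher and *Kcnj1* as lower, at the same values, without either ADPKD library. Of protein-coding genes under 20% by the structure share, 4.98% were called higher and 77.9% lower against WT, and of those of at least 60%, 58.7% and 15.8%, beside 0 and 4 of the 6 members under 20% and 1 and 0 of the 3 of at least 60%. Centred by gene structure, none of the 9 was called lower, *Pvalb* (0.84) and *Trpm6* (1.81) were called higher, and the other 7 ran from -0.82 for *Umod* to 0.77 for *Kcnj1*. Of all genes in this setting 35.8% were called higher and 26.8% lower.

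Ratios within a library do not depend on its scaling, but partners can differ in gene structure. *Slc12a3* over *Slc12a1*, the cotransporters of the 2 segments, was 0.474 and 0.867 in WT, 0.648 and 0.163 in ADPKD, and 2.66 and 2.98 in ADPKD+MMPP. These partners have 64.7% and 17.4% of their exon bases in 1 transcript, and the part of gene structure in their ratio was not tested. *Kcnj10* over *Kcnj16*, the subunits of one channel, was 0.362 and 0.383 in WT, 0.183 and 0.0816 in ADPKD, and 7.34 and 7.18 in ADPKD+MMPP. The partners of this ratio differ most in gene structure, at 100% and 2.82% of exon bases in 1 transcript. *Umod* over *Slc12a1*, a thick limb pair under 20%, was 5.81 and 3.94 in WT, 9.07 and 7.86 in ADPKD, and 3.25 and 3.51 in ADPKD+MMPP. *Calb1* over *Slc12a3* was 0.253 and 0.288 in WT, 0.311 and 0.725 in ADPKD, and 0.655 and 0.638 in ADPKD+MMPP. The ratios of *Umod* to *Slc12a1* did not overlap between the 3 groups, nor did those of *Kcnj10* to *Kcnj16*.

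**Figure D4:**
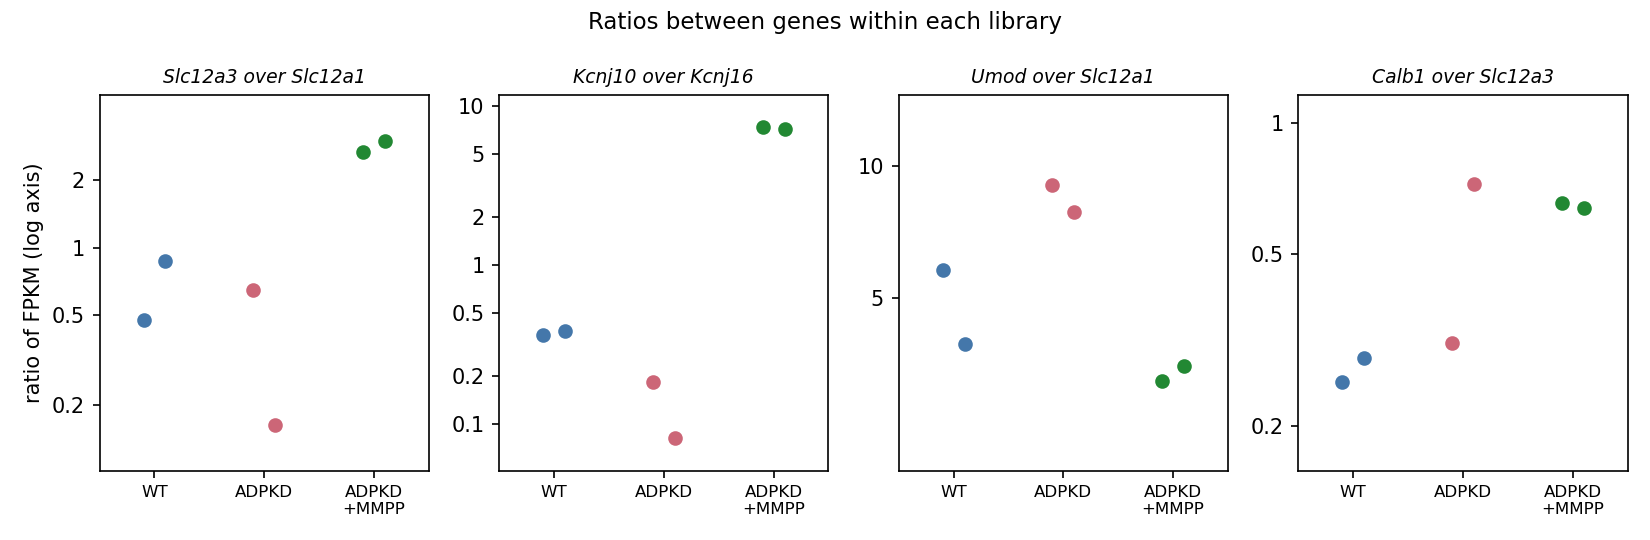
Ratio of FPKM between 2 genes in each library, on log axes, for 4 pairs, by group. *Slc12a3* over *Slc12a1* and *Kcnj10* over *Kcnj16* were above 2 in both ADPKD+MMPP libraries and below 1 in the other 4.

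Other genes of the thick limb were read from a list of 13, of which 12 were tested and *Nos1* was below the filter. In this and the following lists, genes rose or fell by the study's thresholds, at an unadjusted P. The shares of all genes called are given above for each comparison. Of these, 5 fell and 1 rose in ADPKD against WT, with a median log2 fold change of -0.53. *Egf*, the epidermal growth factor precursor made in the thick limb and distal convoluted tubule, fell from 191 and 75.7 FPKM to 11.4 and 0.418 (log2 fold change -4.86, limma adjusted p = 0.0212). *Wfdc15b*, a small secreted protein, fell from 189 and 82.4 to 29.0 and 7.63 FPKM (log2 fold change -2.97, limma adjusted p = 0.0241). *Bsnd*, which encodes the accessory subunit barttin, fell from 11.7 and 7.90 to 6.03 and 1.11 FPKM (limma adjusted p = 0.104). *Cldn19*, a tight junction protein for calcium and magnesium, rose from 4.85 and 2.69 to 10.8 and 6.06 FPKM (limma adjusted p = 0.0718).

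In ADPKD+MMPP against ADPKD, 7 of the 12 rose and 2 fell, with a median of 1.49 beside -0.36 over all genes. *Bsnd* rose to 35.1 and 38.5 FPKM, *Wfdc15b* to 118 and 117 and *Cldn19* to 45.3 and 43.7. *Casr*, the calcium-sensing receptor, fell to 0.610 and 0.699 FPKM. *Bsnd* has 100% of its exon bases in 1 transcript and *Cldn19* 80.6%, against 3.90% for *Casr* and 5.25% for *Wfdc15b*. With libraries centred by this share, the median of the list was 1.70.

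The kinases and regulators of NCC were read from a list of 9, of which 8 were tested and *Wnk3* was below the filter. Of these, 3 fell and 0 rose in ADPKD against WT, with a median of -0.34. *Sgk1*, the aldosterone-induced kinase, fell from 363 and 375 to 173 and 176 FPKM (log2 fold change -1.07, limma adjusted p = 0.00439). *Wnk1*, a kinase upstream of NCC, fell from 23.2 and 19.5 to 12.4 and 11.8 FPKM, and *Klhl3*, the adaptor that marks WNK kinases for degradation, from 6.16 and 4.09 to 1.96 and 1.201 FPKM. *Wnk4* was at -0.53 and did not pass. In ADPKD+MMPP against ADPKD, 7 of the 8 fell and 1 rose, with a median of -1.69, or -0.92 with libraries centred by gene structure. *Sgk1* fell to 4.66 and 4.11 FPKM and *Wnk4* to 1.49 and 1.17 FPKM, and *Oxsr1*, the kinase OSR1, rose to 19.98 and 19.7 FPKM. The share of exon bases in 1 transcript was 30.1% for *Sgk1*, 0.747% for *Wnk4* and 56.9% for *Oxsr1*.

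All 12 genes of distal calcium and magnesium handling were tested. Between ADPKD and WT 2 rose and 3 fell, with a median of -0.19. *Trpv5*, the apical calcium channel, rose from 6.35 and 7.78 to 26.1 and 9.54 FPKM (limma adjusted p = 0.119). *Atp2b1*, a calcium pump, rose from 8.51 and 8.72 to 12.8 and 18.9 (limma adjusted p = 0.0349). *S100g*, calbindin-D9k, fell from 198 and 139 to 89.9 and 44.3 FPKM (limma adjusted p = 0.0375). *Slc8a1*, the sodium-calcium exchanger, fell from 6.02 and 4.35 to 3.32 and 0.844 (limma adjusted p = 0.0916). *Vdr*, the vitamin D receptor, fell from 15.3 and 13.1 to 10.9 and 6.65 (limma adjusted p = 0.0813). *Trpm7*, the ubiquitous relative of *Trpm6*, did not pass, at 15.2 and 16.3 FPKM in WT and 16.5 and 13.3 in ADPKD. In ADPKD+MMPP against ADPKD 7 rose and 4 fell, with a median of 1.18. *S100g* rose to 459 and 436 FPKM, *Vdr* to 45.0 and 44.1 and *Kl*, which encodes the FGF23 co-receptor klotho, to 62.7 and 61.4, and *Trpm7* fell to 2.19 and 1.59. *S100g*, *Vdr* and *Kl* have 100%, 84.0% and 82.7% of their exon bases in 1 transcript, and *Trpm7* has 33.5%.

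Among the sodium pump and its basolateral partners, a list of 5 that shares genes such as *Bsnd* and *Fxyd2* with the lists above, 1 rose and 2 fell in ADPKD. The gene that rose was *Atp1b1*, the beta subunit of the sodium pump, from 321 and 282 to 551 and 382 FPKM (limma adjusted p = 0.0727). In ADPKD+MMPP against ADPKD 4 of the 5 rose, among them *Atp1b1*, to 1666 and 1691 FPKM. Of 6 markers of the distal convoluted and connecting tubule, 3 fell in ADPKD, with a median of -0.85. *Klk1*, tissue kallikrein, fell from 792 and 710 to 149 and 25.5 FPKM (log2 fold change -3.58, limma adjusted p = 0.0216). *Emx1* fell from 10.05 and 13.1 to 4.36 and 0.486 (limma adjusted p = 0.0425). *Tmem52b* fell from 45.2 and 34.8 to 21.8 and 5.50 (limma adjusted p = 0.0710). Against ADPKD, the treated libraries were higher for 4 of these 6, with *Klk1* at 377 and 342 FPKM and *Tmem52b* at 110 and 114 FPKM, and lower for 1. Against WT, 7 of the 12 other thick limb genes, 0 of the 8 NCC regulators, 6 of the 12 calcium and magnesium genes, 4 of the 5 pump genes and 2 of the 6 distal markers were higher in ADPKD+MMPP, and 4, 7, 2, 1 and 1 were lower.

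**Figure D5:**
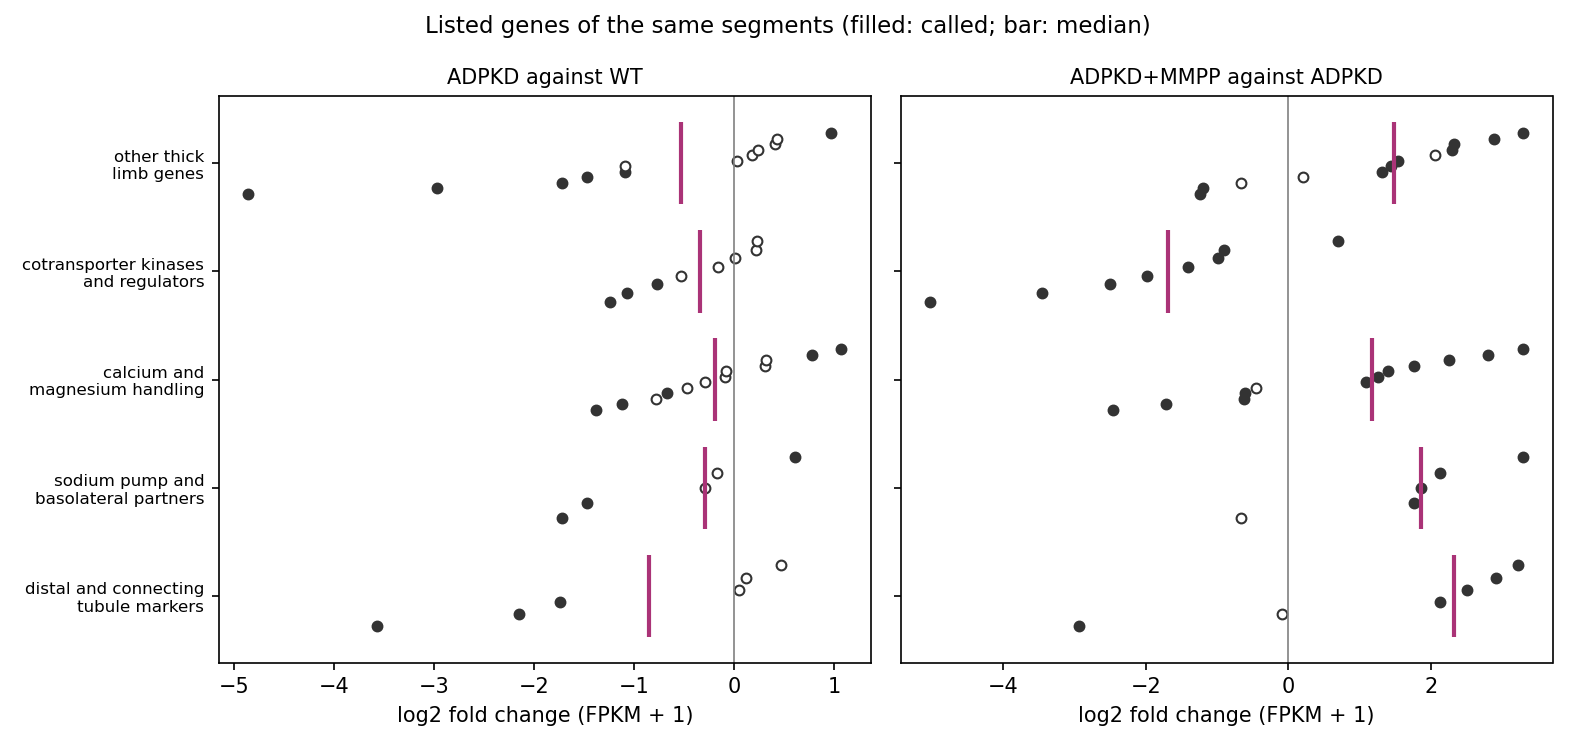
Log2 fold change of each tested gene of the 5 pathway lists (points, filled where called) in ADPKD against WT and in ADPKD+MMPP against ADPKD, with a bar at the median of each list. In ADPKD against WT the 5 pathway medians lie between -0.85 and -0.19, and in ADPKD+MMPP against ADPKD the NCC regulators have the lowest median at -1.69.

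Markers of other cell types moved with these comparisons. In ADPKD against WT, 8 of 8 intercalated cell markers fell, with a summed FPKM of 292 to 311 in WT and 29.4 to 66.4 in ADPKD, and 5 of 5 podocyte markers fell. Of 7 macrophage and leukocyte markers 7 rose (summed FPKM 178 to 233 in WT and 560 to 950 in ADPKD), of 5 endothelial markers 4 fell and 1 rose (641 to 784 and 491 to 505), and of 5 fibroblast and pericyte markers 3 rose and 1 fell (73.9 to 99.1 and 128 to 145). Of 9 tested principal cell markers 1 rose and none fell (2097 to 2798 in WT and 958 to 2507 in ADPKD). *Avpr2* was below the filter, at 0.0587 FPKM or less in all 6 libraries, WT included. Of 12 proximal tubule markers 3 rose and none fell. Among all genes tested, 14.2% rose and 12.5% fell between these 2 groups. In ADPKD+MMPP against ADPKD, 10 of 12 proximal tubule, 6 of 8 intercalated cell and 4 of 9 principal cell markers rose, and 3 of the principal cell markers fell. Of the podocyte markers 3 fell, of the endothelial markers 2 fell, of the macrophage and leukocyte markers 2 rose and 4 fell, and of the fibroblast and pericyte markers 2 rose and 3 fell. These counts stand beside 27.9% of all genes higher and 43.0% lower under treatment. The 4 principal cell markers that rose have 81.6% to 100% of their exon bases in 1 transcript. Those that fell, *Scnn1b*, *Elf5* and *Aqp4*, have 7.37%, 56.3% and 75.8%. The part of gene structure in the marker counts was not tested. The summed FPKM of principal cell markers was 5438 to 5459 in the treated libraries and that of intercalated cell markers 185 to 195. In the treated libraries the other sums were 308 to 339 for endothelium, 676 to 718 for macrophages and leukocytes and 132 to 140 for fibroblasts and pericytes. The summed FPKM of the 9 genes was 564 to 1352 in WT, 224 to 684 in ADPKD and 271 to 275 in ADPKD+MMPP. The part of these other cell types in the changes of the 9 genes was not tested.

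The genes most like *Umod*, *Slc12a1* and *Slc12a3* across the 6 libraries were sought among 9439 genes with a mean of at least 5 FPKM in at least 1 group, by the root mean square difference of log2(FPKM + 1) after each gene's own mean was removed. For *Slc12a1* these were *Nlrp6* (0.260), *Tmem182* (0.262) and *Chrm3* (0.272). *Nlrp6* had 8.82 and 3.48 FPKM in WT, 2.36 and 0.411 in ADPKD, and 0.700 and 1.23 in ADPKD+MMPP. For *Slc12a3* they were *Kcne1* (0.346), *Slc4a1* (0.414) and *Alpl* (0.430), of which *Slc4a1*, the anion exchanger of intercalated cells, had 20.6 and 14.9 FPKM in WT, 3.02 and 0.0128 in ADPKD, and 11.3 and 12.7 in ADPKD+MMPP. For *Umod* they were the predicted genes *Gm27343* (0.321), *CT010467.2* (0.346) and *Gm26236* (0.378). Over the 4 WT and ADPKD libraries alone, a choice made after the values were seen, the nearest were *Dnase1* (0.134), *Acy3* (0.210) and *Ces1f* (0.229) for *Umod*, *Nlrp6* (0.129), *Gm28661* (0.164) and *Mir145a* (0.183) for *Slc12a1*, and *Dkk2* (0.377), *Miox* (0.394) and *Ptn* (0.403) for *Slc12a3*. Of the genes nearest over 6 libraries, *Nlrp6* was again among them and the other 8 were not. Among the members themselves, *Slc12a1* and *Kcnj1* differed by 0.498, *Umod* and *Slc12a1* by 0.572, *Slc12a3* and *Calb1* by 0.632, and *Slc12a3* and *Trpm6* by 2.48. All libraries are shared between these genes, and the values are descriptions with no test.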

How the data were processed

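RNA of DBA-positive mouse kidney cells was measured in 6 libraries, 2 each of WT, ADPKD and ADPKD+MMPP. The authors aligned reads to mm10 with HISAT2 2.1.0, counted them with featureCounts 1.6.0 and deposited FPKM per gene symbol; the FPKM step, the annotation release and the use of strand are not given in the sources used here. Members were found by symbol in all 6 libraries, and positions, exon lengths and transcript structure came from GENCODE vM21, which matched 53186 of 55367 symbols. Nearly whole read numbers (FPKM times exon length) gave the depth. Because FPKM are not counts, the count model of the study was replaced by limma 3.58.1 in R 4.3.3, fitted jointly to all libraries on log2(FPKM + 1) for the 14862 genes that reached 1 FPKM in 2 or more libraries. Adjusted p-values are Benjamini-Hochberg over these genes, and the scale understates changes of low genes. The members, gene lists and markers were chosen with earlier results of these data known, and lists are described by counts and medians without a set test. Named genes are the members, *Pkd1*, genes of the fixed lists and the 3 genes most like *Umod*, *Slc12a1* and *Slc12a3*. Promoter letters are RefSeq's, and proteins were not analysed here. Some genes of the lists are counted but not reported by name here, and 1 motif of the promoter search is not reported here. Alternatives covered pseudocount, filter, scaling, spread, samples in the fit, thresholds, a replicate block, gene structure and leaving out each library. Precision is limited by 2 libraries per group.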

Additional observations from a re-analysis of the deposited data

How the results depend on the processing

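Of 513 fold changes of the 9 genes under alternative settings, 438 kept direction and call, 42 lost the call, 17 gained one and 16 changed sign. Several settings leave the fold change as it is, so that its direction was fixed in advance. These are the adjusted p, a fold of at least 2, the spread with a trend and the filters on low values. The others are the fit of only the groups compared, the replicate block and leaving out either library of the group not compared. The 438 thus include many fold changes whose sign could not change. For ADPKD against WT, the 4 genes called lower became 2 with no filter on low values and 1 at an adjusted p under 0.05, and ranged from 1 (without WT replicate 1) to 7 (without ADPKD replicate 1) as libraries were left out; without WT replicate 2 it was 2. The 1 called higher ranged from 1 to 2, with 2 without ADPKD replicate 2. *Kcnj16* ranged from -0.22 without ADPKD replicate 1 to 0.60 without ADPKD replicate 2.

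For ADPKD+MMPP against ADPKD, centring by gene structure left 0 of the 3 genes called lower, with *Umod* at 0.34, *Slc12a1* at 1.32 and *Kcnj1* at 1.93. *Kcnj1*, close to 0 in the main setting, was also positive with a pseudocount of 0.1 (0.011) or 0.5 (0.0011), with TMM factors (0.18) and with quantile normalization (0.11). Leaving out libraries, *Slc12a1* ranged from -1.18 to 0.28 and *Kcnj1* from -0.99 to 0.97. For ADPKD+MMPP against WT, centring left 0 of the 4 genes called lower and 2 in place of 1 called higher, with *Pvalb* at 0.84, *Kcnj1* at 0.77, *Calb1* at -0.095 and *Trpm6* at 1.81. *Trpm6* was at 0.52 with quantile normalization. With only the groups compared in the fit 2 were called higher, and leaving out libraries gave 0 to 2 (0 without WT replicate 2 or ADPKD+MMPP replicate 1). Beyond the construction of each setting, the cause was not tested.

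Scaling moved the median of all genes in ADPKD+MMPP against ADPKD from -0.36 to 0.10 with quantile normalization and -0.55 with a common sum, and the share of calls that were higher from 39.3% to 54.0% and 31.9%; centring gave 58.0%. A fold of at least 2 left 1951 of 3970 calls in ADPKD against WT. Across genes, the deviations of same-numbered libraries had r of 0.129 for WT and ADPKD. It was -0.00796 for WT and ADPKD+MMPP and 0.0137 for ADPKD and ADPKD+MMPP. With 2 libraries per group, these values cannot decide whether the replicate numbers pair the libraries. Of the 9 genes, 8 were lower in replicate 2 than in replicate 1 in WT, and 8 in ADPKD. With the replicate number as a block, 4055, 10595 and 11038 genes were called in place of 3970, 10540 and 10984, and the 9 genes gave 1 higher and 5 lower, 4 and 3, and 1 and 4. Depth limits *Pvalb* in ADPKD, with 14 and 0 reads.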
